A study of Mus musculus with 24 samples.

Results

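The comparison described here is that of palmitate-treated AML-12 hepatocytes given a control endoribonuclease-prepared small interfering RNA (esiRNA) with palmitate-treated cells given no esiRNA. Its members are the 4 CON and the 4 PAL libraries, 8 of the 24 libraries of the series, chosen by their labels. Expression was measured by BRB-seq, in which barcoded samples are pooled early and the 3′ ends of the mRNAs are sequenced. In the study, palmitate modelled steatosis and esiRNAs against *Bmal1* and *Chrebp* silenced these transcription factors. CON was the negative control of those groups, so CON against PAL asks which transcripts differed with the control transfection alone.

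All 8 cultures received 0.25 mM palmitate bound to bovine serum albumin, in medium without dexamethasone and with charcoal/dextran-treated serum. The CON cultures were transfected the next day, using a lipid reagent, with 200 nM of an esiRNA against *Egfp*, a jellyfish-derived reporter gene that mouse cells lack, and were collected 24 hours later. No mouse count can check that label, since the esiRNA has no target in these cells. The labels give PAL as blank without esiRNA and do not say whether PAL received the transfection reagent. Effects of the reagent, of the esiRNA as double-stranded RNA and of its sequence therefore cannot be told apart. AML-12 is an established line from mice transgenic for human TGF-alpha, and the replicates are cultures of this single line. Nothing in the sources used here says whether they came from separate passages, so the p-values measure the spread between these libraries, which may be technical. The library names in the labels (E01 to H01 for PAL, A02 to D02 for CON) differ between the groups in letter and number, and what they stand for cannot be told apart from the transfection.

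The line's label was checked against marker genes. Of 19 hepatocyte markers, 16 had enough counts to be tested, most abundantly *Krt18*, and the hepatocyte factor *Hnf4a* stood at 1423 ± 45.9 normalized counts in PAL and 1395 ± 40.9 in CON (mean ± SD, n = 4 each). The mature hepatocyte genes *Cps1*, *Cyp2e1* and *Ahsg* did not reach the minimum, whereas the cholangiocyte markers *Spp1* (9762 ± 569 in PAL) and *Krt19* (3233 ± 238) were abundant. No stellate marker (0 of 9) and no endothelial marker (0 of 7) had enough counts. Of 11 macrophage and leukocyte markers, 6 had no count in any library, among them *Adgre1*, *Itgam* and *Clec4f*. The summed level of that list, most of it *Cd14*, ran from 74.4 to 86.4 CPM (counts scaled to a common library total) in PAL and from 79.6 to 87.7 in CON.

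Total gene counts ran from 5868438 to 9714715 in PAL and from 6512750 to 11237474 in CON (2-sided exact permutation p = 0.314, adjusted p = 0.419 over 4 checks, n = 4 per group). The share of gene counts from mitochondrially encoded transcripts was 3.48% ± 0.0508 in PAL and 3.64% ± 0.161 in CON (exact permutation p = 0.0571, adjusted p = 0.229), and reads that were not aligned made up 26.9% ± 0.420 and 27.0% ± 0.355 (exact permutation p = 0.543, adjusted p = 0.543). The smallest p that 4 against 4 libraries allow is 0.0286. CON replicate 1 stood apart from the other CON libraries. On the first principal component, which held 41.5% of the variance, the PAL libraries lay between -15.8 and -9.64, CON replicates 2 to 4 between 12.2 and 17.1, and CON replicate 1 at 0.768.

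Cells read double-stranded RNA as a sign of infection. The helicases RIG-I (*Ddx58*) and MDA5 (*Ifih1*) in the cytoplasm and TLR3 in endosomes pass the signal through MAVS or TICAM1 to IRF3 and NF-κB, which switch on type I interferon genes. Secreted interferon binds IFNAR1 and IFNAR2, and the kinases JAK1 and TYK2 then activate a complex with STAT2 and IRF9 that binds the interferon-stimulated response element (ISRE) in the promoters of antiviral genes. An esiRNA is a pool of short double-stranded RNAs cut from a long one by a ribonuclease, and liver epithelial cells carry these sensors.

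Among the 12928 genes whose counts summed to 25 or more over the 8 libraries, 206 were called higher in CON (1.59% of the genes tested) and 119 lower (0.92%), 325 in all (2.51%), by DESeq2 at a Benjamini-Hochberg adjusted p (*Padj*) under 0.1. Rises and falls differed in size. The called rises had a median log2 fold change of 0.47, and 66 of them were at least 2-fold (0.511% of the genes tested). The called falls had a median of -0.30, and 3 were at least 2-fold (0.0232%), *AI429214* and *Mapk4* among them, which were chosen after their values were seen. The median over all genes tested was -3.95e-05, a value that the size-factor scaling sets near 0. In bulk RNA, fewer cells expressing a gene and less of its RNA per cell cannot be told apart. The 4 CON libraries did not overlap the 4 PAL libraries in 273 of the 325 called genes, beside 7.22% of all genes tested. Without CON replicate 3 there were 119 rises and 61 falls, without CON replicate 2 there were 125 and 72, and falls numbered 69 without PAL replicate 4 and 73 without CON replicate 4.

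**Figure D1:**
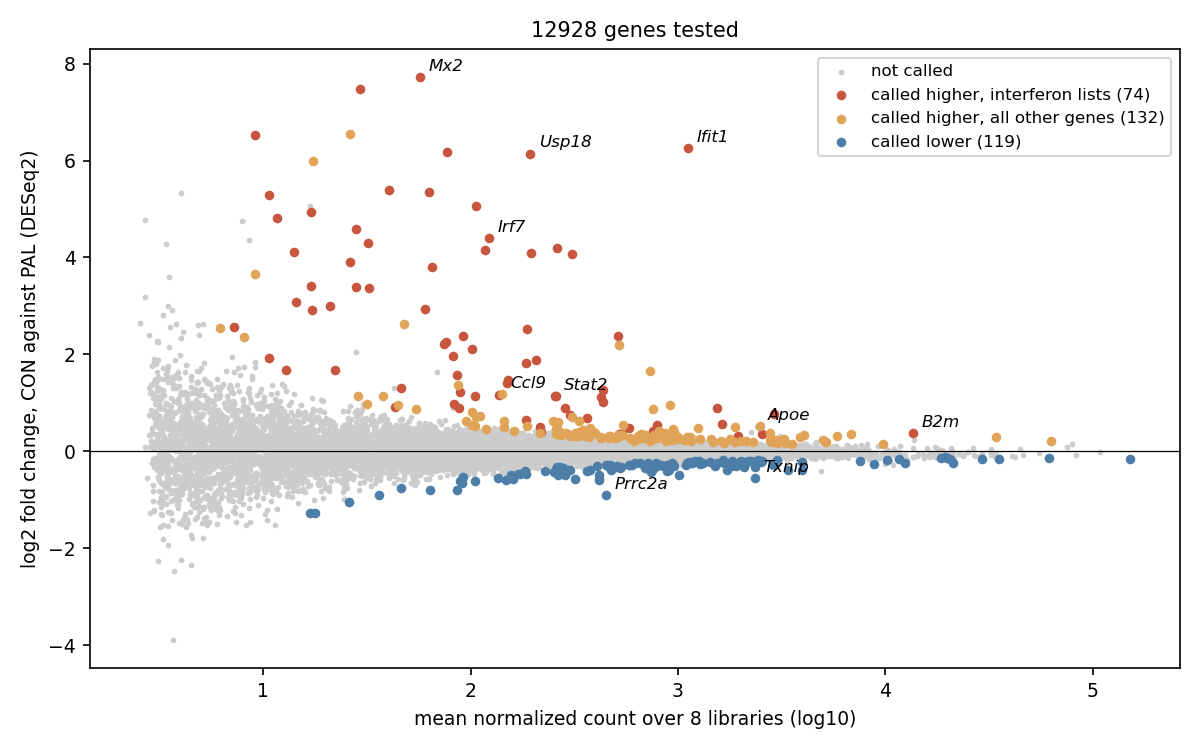
Log2 fold change of CON against PAL (DESeq2, vertical axis) for 12928 genes against the log10 of their mean normalized count over 8 libraries. Red points are the 74 called rises on interferon-type lists, orange points the other 132 called rises, blue points the 119 called falls and grey points genes that were not called; rises above 2 log2 units are mostly red, and the falls, with a median of -0.30, mostly lie closer to 0.

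Genes of the interferon pathway made up most of the large rises, 54 of the 66 of at least 2-fold. These genes came from 11 lists of sensors, receptors with their kinases and transcription factors, negative regulators, antiviral effectors, antigen presentation genes and chemokines. Of the 158 genes listed, 125 were tested. Among them 74 were called higher and 0 lower, beside 1.59% called higher and 0.92% lower over all genes tested. The same shares stand beside the list counts that follow. The median log2 fold change was 1.01 over the 125 tested, beside -3.95e-05 over all genes tested, which the scaling sets near 0. Left out were the interferon genes, none of which could be tested, and the list of adaptors and kinases between sensor and interferon (1 called higher of 11 tested, median 0.08). That 1 gene, *Trim25*, is still among the 74, since it is also on the ISG15 conjugation list, which is 1 of the 11. Leaving out CON replicate 1 gave 86 higher and 0 lower with a median of 1.18, and leaving out CON replicate 2 or CON replicate 3 gave 53 higher and 0 lower each. Of the other 132 called rises, 21 were on other lists and 111 on none.

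Double-stranded RNA sensors were higher in CON. Of the sensor list, 9 of 13 members were tested, and 6 were called higher and 0 lower (median log2 fold change 0.97). The count was 2 without CON replicate 2 and 3 without PAL replicate 1, PAL replicate 4, CON replicate 3 or CON replicate 4. *Ifih1*, the sensor of long double-stranded RNA, stood at 52.5, 50.7, 32.8 and 37.6 normalized counts in PAL replicates 1 to 4 and at 69.6, 155, 173 and 115 in CON replicates 1 to 4. Every CON library lay above every PAL library (log2 fold change 1.58 ± 0.25 (SE), *Padj* = 2.33e-07). *Tlr3* stood at 45.6, 79.2, 63.3 and 58.8 in PAL and 86.5, 145, 139.6 and 87.3 in CON (log2 fold change 0.90 ± 0.22 (SE), *Padj* = 0.00393), and *Eif2ak2*, the kinase PKR that stops translation on binding double-stranded RNA, at 59.4, 48.5, 58.6 and 58.8 in PAL and 68.6, 138, 137 and 94.5 in CON (log2 fold change 0.97 ± 0.22 (SE), *Padj* = 0.00166). For both, CON replicate 1 was the lowest CON library and still above PAL.

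For 3 of the 6 sensors the groups overlapped, through CON replicate 1. *Ddx58* stood at 76, 86.5, 85.6 and 89.8 in PAL and 80.9, 246, 251 and 183 in CON, so CON replicate 1 lay inside the PAL range while CON replicates 2 to 4 lay far above it (log2 fold change 1.17 ± 0.36 (SE), *Padj* = 0.0569). *Dhx58*, encoding LGP2, a regulator of the other helicases, stood at 9.67, 9.5, 0 and 4.08 in PAL and 4.7, 94.5, 95.6 and 42.4 in CON (log2 fold change 3.36 ± 1.10 (SE), *Padj* = 0.0898), and *Zbp1*, a sensor of left-handed nucleic acid, at 0, 0, 3.52 and 2.45 in PAL and 1.88, 33.9, 49.1 and 21.8 in CON (log2 fold change 4.12 ± 1.24 (SE), *Padj* = 0.0473). These 3 calls depended on which libraries entered. *Ddx58* lost its call when any library but CON replicate 1 was left out (*Padj* 0.150 to 0.317), as did *Dhx58* (*Padj* 0.127 to 0.411), and *Zbp1* lost it without PAL replicate 1 or 4 or CON replicate 2, 3 or 4 (*Padj* 0.118 to 0.320). Without CON replicate 1 the log2 fold changes were 1.42 for *Ddx58* (*Padj* = 1.06e-14), 3.76 for *Dhx58* (*Padj* = 0.000197) and 4.48 for *Zbp1* (*Padj* = 1.98e-07), and *Zbp1* reached 4.86 without PAL replicate 3. *Tlr3* lost its call without CON replicate 2 (*Padj* = 0.104) and in the fit of all 24 libraries (*Padj* = 0.204). The sensor *Cgas*, its partner *Sting1* and *Nod1* were not called (log2 fold changes 0.08 to 0.18).

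Between sensor and interferon, 1 gene was called, beside 2.51% of all genes tested, a share at which a list of 11 holds few calls or none. Of 11 adaptors and kinases tested, only *Trim25*, the ubiquitin ligase that assists RIG-I, was called, with 587, 695, 591 and 691 normalized counts in PAL and 751, 1029, 1048 and 911 in CON (log2 fold change 0.54 ± 0.10 (SE), *Padj* = 1.54e-05). *Mavs* gave 147 ± 14.6 in PAL and 131 ± 22.7 in CON (log2 fold change -0.16 ± 0.16, *Padj* = 0.809), and *Irf3* gave 692 ± 50.5 and 723 ± 16.5 (0.06 ± 0.07, *Padj* = 0.874). The 10 uncalled adaptors ran between -0.16 and 0.40. None of the 10 interferon genes listed had enough counts to be tested. *Ifnb1*, the first type I interferon that infected epithelial cells make, had raw counts of 0, 0, 0 and 1 in PAL and 0, 4, 1 and 0 in CON, a difference that is not detectable at this depth. *Ifna1*, *Ifna4*, *Ifng*, *Ifnl2* and *Ifnl3* had 0 counts in all 8 libraries, where 3 counts correspond to between 0.267 and 0.511 CPM.

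Downstream of the interferon receptor, transcription factors made up the calls. Of 17 members tested, 5 were called higher, *Irf7*, *Irf9*, *Stat2* and *Irf1* among them, and 0 lower. *Stat2* stood at 191, 168, 139 and 149 in PAL and 201, 450.1, 414 and 350.3 in CON (log2 fold change 1.13 ± 0.27 (SE), *Padj* = 0.00305), and *Irf9* at 242, 293, 233 and 256 in PAL and 329, 774, 734 and 611 in CON (log2 fold change 1.26 ± 0.28 (SE), *Padj* = 0.000930). In both, CON replicate 1 was nearest to PAL, and the groups did not overlap. *Irf7*, which amplifies interferon production and is itself induced by interferon, went from 4.15, 20.1, 7.03 and 13.1 in PAL to 47, 372, 357 and 167 in CON (log2 fold change 4.40 ± 0.76 (SE), *Padj* = 3.45e-06), a fitted 21.1-fold rise. The 12 uncalled members, which include the receptor chains and kinases *Ifnar1*, *Ifnar2*, *Jak1* and *Tyk2* and the factors *Stat3*, *Irf2* and *Irf5*, ran from -0.19 to 0.28. Without PAL replicate 2, *Ifngr1*, a chain of the interferon-gamma receptor, was called lower.

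Negative regulators of the same pathway were also among the rises. *Usp18*, the protease that removes ISG15 and dampens signalling at IFNAR2, stood at 2.76, 3.17, 4.69 and 10.6 in PAL and 36.7, 606, 588 and 299 in CON (log2 fold change 6.14 ± 0.91 (SE), *Padj* = 1.15e-08), and without PAL replicate 4 its log2 fold change was 6.75. *Socs1*, an inhibitor of JAK kinases, stood at 24.9, 27.4, 41 and 26.9 in PAL and 36.7, 60.0, 68.9 and 61.8 in CON. Its groups overlapped (log2 fold change 0.92 ± 0.27 (SE), *Padj* = 0.0395), and the call was lost when PAL replicate 1, 2 or 4 or CON replicate 2, 3 or 4 was left out (*Padj* 0.120 to 0.292). The other 7 of the 9 tested members were not called, which leaves *Usp18* alone in those 6 fits.

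**Figure D2:**
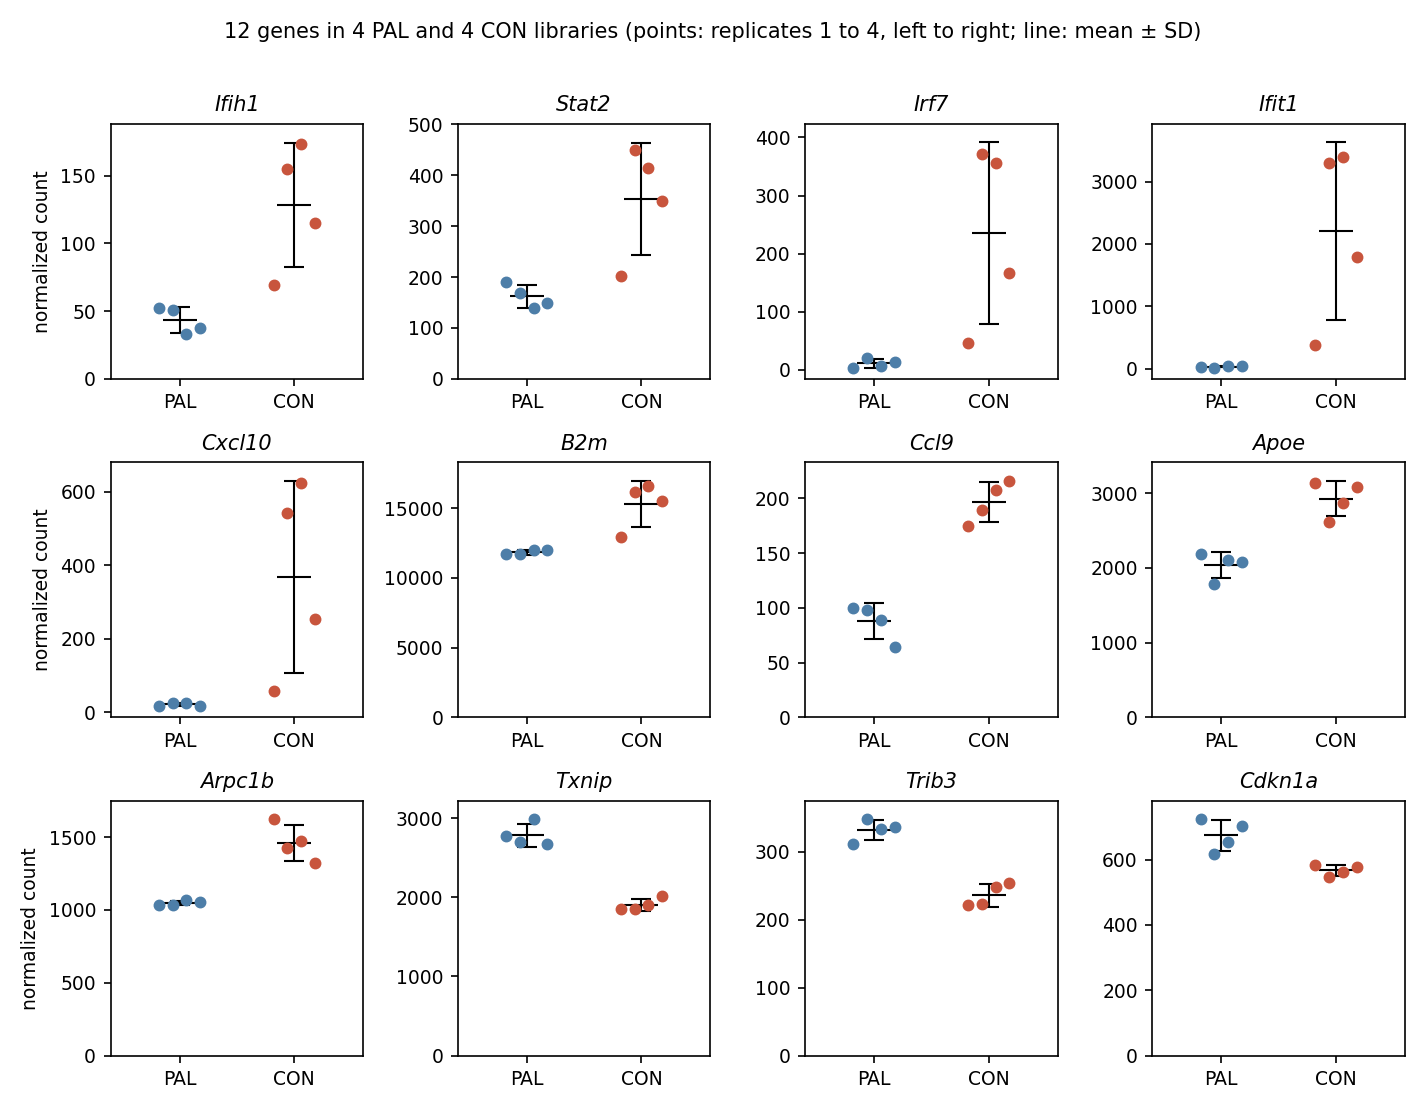
Normalized counts (vertical axes, which include 0) of 12 genes in the 4 PAL libraries (blue) and the 4 CON libraries (red), with replicates 1 to 4 from left to right and the mean ± SD as a line and bar. In *Ifih1*, *Stat2*, *Irf7*, *Ifit1*, *Cxcl10* and *B2m* CON replicate 1 is the lowest CON library, while in *Ccl9*, *Apoe*, *Arpc1b*, *Txnip*, *Trib3* and *Cdkn1a* the CON libraries lie close together and apart from PAL.

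Since the ISRE is the sequence through which the STAT2 and IRF9 complex acts, promoters were read from RefSeq (GRCm38.p6). The 6 largest rises by the naming rule with an entry in the promoter table are shown, each as the 250 bases before the transcription start, 5′ to 3′ on the gene's strand. Capitals mark matches on either strand to the ISRE core, searched as GAAA, any 2 bases and GAAA again. The windows are chr19:34640639-34640888 (plus strand) for *Ifit1*, chr5:114896684-114896933 (plus) for *Oasl2*, chr12:26456453-26456702 (minus) for *Rsad2*, chr7:141266425-141266674 (minus) for *Irf7*, chr19:34607707-34607956 (plus) for *Ifit3b* and chr11:72301379-72301628 (plus) for *Xaf1*.
Ifit1: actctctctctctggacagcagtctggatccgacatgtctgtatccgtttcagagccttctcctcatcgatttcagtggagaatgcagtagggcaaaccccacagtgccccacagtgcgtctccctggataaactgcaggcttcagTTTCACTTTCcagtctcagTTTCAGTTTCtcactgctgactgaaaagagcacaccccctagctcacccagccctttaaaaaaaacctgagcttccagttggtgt
Oasl2: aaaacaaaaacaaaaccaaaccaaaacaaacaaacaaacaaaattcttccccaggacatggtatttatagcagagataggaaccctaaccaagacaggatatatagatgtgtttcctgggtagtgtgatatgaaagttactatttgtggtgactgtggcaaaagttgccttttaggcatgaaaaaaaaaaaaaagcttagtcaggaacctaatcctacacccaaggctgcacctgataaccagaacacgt
Rsad2: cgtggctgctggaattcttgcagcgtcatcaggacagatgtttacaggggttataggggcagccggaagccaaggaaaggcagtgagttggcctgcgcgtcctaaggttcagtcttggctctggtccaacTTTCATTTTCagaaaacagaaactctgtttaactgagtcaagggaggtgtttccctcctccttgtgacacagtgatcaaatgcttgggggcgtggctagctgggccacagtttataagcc
Irf7: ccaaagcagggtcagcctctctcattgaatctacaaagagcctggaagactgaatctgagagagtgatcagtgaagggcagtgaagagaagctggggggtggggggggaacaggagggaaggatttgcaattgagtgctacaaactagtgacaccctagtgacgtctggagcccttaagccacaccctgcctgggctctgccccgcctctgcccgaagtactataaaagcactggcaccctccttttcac
Ifit3b: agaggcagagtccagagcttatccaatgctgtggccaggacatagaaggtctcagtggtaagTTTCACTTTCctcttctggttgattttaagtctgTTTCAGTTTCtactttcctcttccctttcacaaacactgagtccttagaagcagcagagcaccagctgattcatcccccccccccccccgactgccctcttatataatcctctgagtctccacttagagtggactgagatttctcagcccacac
Xaf1: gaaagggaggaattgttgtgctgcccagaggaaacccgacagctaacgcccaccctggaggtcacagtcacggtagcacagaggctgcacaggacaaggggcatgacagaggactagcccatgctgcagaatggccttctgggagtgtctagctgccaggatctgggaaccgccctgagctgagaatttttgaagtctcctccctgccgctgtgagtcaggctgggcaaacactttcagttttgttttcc

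*Ifit1* held 2 matches, beginning 104 and 85 bases before the start, *Ifit3b* held 2, at 188 and 154 bases, and *Rsad2* held 1, at 120 bases. *Oasl2*, *Irf7* and *Xaf1* held none, which says only that these letters are not in these windows. Over promoters of 250 bases before to 50 bases after the start, the ISRE core was in 37 of 163 called rises with a promoter (22.7%), in 4 of 91 called falls (4.40%), in 339 of 9674 genes tested (3.50%) and in 1131 of all 32851 promoters (3.44%). Among called rises on the interferon-type lists it was in 24 of 56 (42.9%). The letters TTCNNNGAA, the gamma-activated site (GAS) another element of interferon-induced promoters, were in 12.9% of called rises, 23.2% of those on interferon-type lists, 5.49% of called falls and 8.12% of genes tested. A match is a description of the letters and not of binding.

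Antiviral effectors held the largest fold changes. Of 48 listed, 35 were tested, and 25 were called higher and 0 lower (median log2 fold change 1.65), with the 10 uncalled members between 0.12 and 5.06. *Ifit1*, which binds viral RNA with foreign 5′ ends (chromosome 19, 34640871 to 34650009, GRCm38), stood at 23.5, 15.8, 37.5 and 39.2 in PAL and 376, 3292, 3389.8 and 1783 in CON. The lowest CON library was thus far above the highest PAL library, and CON replicates 2 and 3 were higher again (log2 fold change 6.25 ± 0.69 (SE), *Padj* = 7.43e-16, a fitted 76.1-fold rise). Its neighbours on chromosome 19 followed, with *Ifit3* at 20.7, 40.1, 27 and 50.6 in PAL and 81.8, 901, 919 and 418 in CON (log2 fold change 4.06 ± 0.73 (SE), *Padj* = 8.78e-06) and *Ifit3b* at 13.8, 25.3, 37.5 and 31 in PAL and 59.2, 832, 818 and 276 in CON (log2 fold change 4.20 ± 0.79 (SE), *Padj* = 3.20e-05). The IFIT genes are near-identical in part, and reads that fit more than 1 of them may have been split or dropped.

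*Mx2*, an antiviral GTPase annotated as a polymorphic pseudogene in the mouse reference (chromosome 16, 97535308 to 97560900), had 2 raw counts over the 4 PAL libraries and 543 over the 4 CON libraries. The ratio of the library-size-scaled sums was 228 (95% counting interval 62.8 to 1887, covering counting error only), and the normalized counts in CON were 18.8, 177, 177 and 80.0. Its fitted log2 fold change was 7.72 ± 1.06 (*Padj* = 4.46e-10), and 8.30 without PAL replicate 1. *Ifi44* had 1 and 291 raw counts, a ratio of 244 (43.5 to 9681; *Padj* = 4.95e-05), and its fitted log2 fold change was 7.48, and 6.87 without CON replicate 2. *Rsad2*, encoding viperin, stood at 0, 3.17, 8.2 and 0.816 in PAL and 11.3, 174, 231 and 76.4 in CON (log2 fold change 5.34 ± 1.17 (SE), *Padj* = 0.000771; 6.50 without PAL replicate 3). *Rtp4*, a receptor chaperone induced by interferon, stood at 1.38, 5.28, 10.5 and 7.35 in PAL and 34.8, 298, 345 and 150.3 in CON (log2 fold change 5.06 ± 0.82 (SE), *Padj* = 4.62e-07), and *Xaf1*, a pro-apoptotic factor, at 24.9, 8.44, 9.38 and 8.16 in PAL and 39.5, 286, 389 and 177 in CON (log2 fold change 4.15 ± 0.74 (SE), *Padj* = 8.98e-06). In each of these genes the lowest CON library was replicate 1 and lay above all PAL libraries. For *Mx2*, *Rsad2*, *Rtp4* and *Xaf1*, no overlap was a condition for being named among the largest rises. An abundant member, *Lgals3bp*, a secreted glycoprotein, rose by less, from 2350.3, 1923, 2153 and 2148 in PAL to 2883, 3858, 4157 and 3657 in CON (log2 fold change 0.76 ± 0.09 (SE), *Padj* = 2.13e-14).

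The 2′-5′-oligoadenylate synthetases, which sense double-stranded RNA, also rose, with 5 of 8 members of their list that were tested called higher and 0 lower (median log2 fold change 3.86). *Oas1a* had 0 raw counts in PAL and 93 in CON, at least 26.0-fold higher against a floor of 3 counts over the PAL group (5.64, 38.1, 25.8 and 3.64 normalized counts in CON replicates 1 to 4, *Padj* = 0.00261). *Oas1b*, also annotated as a polymorphic pseudogene in the mouse reference, stood at 5.53, 3.17, 4.69 and 0.816 in PAL and 19.7, 75.5, 70.6 and 30.3 in CON (log2 fold change 3.90 ± 0.56 (SE), *Padj* = 4.33e-09). The OAS-like genes *Oasl1* (4.15 to 12.2 in PAL and 42.3, 155, 174 and 115 in CON; log2 fold change 3.81 ± 0.56 (SE), *Padj* = 9.86e-09) and *Oasl2* (0 to 5.71 in PAL and 14.1, 229, 270.5 and 94.5 in CON; log2 fold change 6.17 ± 1.28 (SE), *Padj* = 0.000297) rose with them, and *Oasl2* had a log2 fold change of 7.59 without PAL replicate 4. Of 5 tested genes of ISG15 conjugation, *Usp18*, *Ube2l6* and *Trim25* were called higher, and all 5 were without CON replicate 1. *Isg15*, the ubiquitin-like modifier, did not reach the minimum count, with raw counts of 0 in all PAL libraries and 0, 5, 10 and 1 in CON.

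Interferon-inducible GTPases that act on vacuoles of intracellular microbes rose in both families. Of 6 immunity-related GTPases tested, 5 were called higher and 0 lower (median log2 fold change 2.16). *Irgm1*, the most abundant, stood at 1205, 1049, 1009 and 1078 in PAL and 1297, 2314, 2398 and 2008 in CON (log2 fold change 0.89 ± 0.20 (SE), *Padj* = 0.00166), and *Irgm2* at 20.7, 33.8, 25.8 and 24.5 in PAL and 59.2, 149, 149 and 133 in CON (log2 fold change 2.22 ± 0.28 (SE), *Padj* = 1.47e-12). *Irgm2* overlaps *Igtp* on the same strand, so their reads may not be separable. *Iigp1* had 2 raw counts in PAL and 96 in CON, a ratio of 40.3 (counting interval 10.9 to 337). CON replicate 1 had none, and the call was lost without PAL replicate 2 or 4 (*Padj* 0.146 to 0.219). Of 6 guanylate-binding proteins tested, 5 were called higher and 0 lower (median 3.16), and *Gbp2* stood at 4.15, 14.8, 18.8 and 18 in PAL and 24.4, 129.8, 173 and 101 in CON (log2 fold change 2.93 ± 0.68 (SE), *Padj* = 0.00182).

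The antiviral PARP list rose in 6 of 7 members tested and fell in 0 (median log2 fold change 1.14). *Parp12* stood at 80.1, 88.7, 87.9 and 97.2 in PAL and 129, 434, 436 and 301 in CON (log2 fold change 1.88 ± 0.39 (SE), *Padj* = 0.000293), and *Parp14* at 20.7, 27.4, 42.2 and 28.6 in PAL and 52.7, 267, 198 and 103 in CON (log2 fold change 2.38 ± 0.54 (SE), *Padj* = 0.00139). *Zc3hav1*, the zinc-finger antiviral protein that marks CpG-rich RNA for decay, was the most abundant and rose least of those called, from 457, 507, 522 and 469 in PAL to 505, 758, 823 and 627 in CON. Its groups overlapped by CON replicate 1 (log2 fold change 0.48 ± 0.12 (SE), *Padj* = 0.00506), and its call was lost without PAL replicate 2 or CON replicate 3 (*Padj* 0.119 to 0.219). Without CON replicate 3 the list had 3 called rises.

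Among genes that present peptides on MHC class I, calls ranged from small rises of abundant genes to large rises of scarce ones. Of 16 tested, 9 were called higher and 0 lower (median log2 fold change 0.59), and the count was 11 without CON replicate 1, 5 without CON replicate 3 and 4 without CON replicate 2. *B2m*, the invariant light chain, stood at 11692, 11684, 11959 and 11979 in PAL and 12939.9, 16144, 16594 and 15530.2 in CON (log2 fold change 0.37 ± 0.06 (SE), *Padj* = 4.24e-06), a 1.29-fold rise. *Psmb8*, a subunit of the immunoproteasome, stood at 0, 5.28, 2.34 and 4.08 in PAL and 7.52, 37.4, 47.4 and 10.9 in CON (log2 fold change 3.08 ± 0.67 (SE), *Padj* = 0.000669). *Tap1*, which carries peptides into the endoplasmic reticulum and overlaps *Psmb9*, stood at 24.9, 22.2, 31.6 and 28.6 in PAL and 34.8, 99.5, 81 and 47.3 in CON (log2 fold change 1.30 ± 0.31 (SE), *Padj* = 0.00305), and lost its call without CON replicate 2 (*Padj* = 0.129).

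Among interferon-induced chemokines and cytokines, 4 of 8 tested were called higher and 0 lower, the ligands *Cxcl9*, *Cxcl10* and *Cxcl11* of the T-cell chemokine receptor CXCR3, and *Ccl5*. Like *Mx2*, *Cxcl11* is annotated as a polymorphic pseudogene in the mouse reference. *Cxcl10* stood at 18, 26.4, 24.6 and 17.1 in PAL and 57.4, 542, 623 and 253 in CON (log2 fold change 4.10 ± 0.70 (SE), *Padj* = 2.01e-06), and *Ccl5* at 0, 5.28, 1.17 and 4.9 in PAL and 32.9, 81.8, 64.6 and 65.5 in CON (log2 fold change 4.29 ± 0.52 (SE), *Padj* = 2.48e-13). Inflammatory chemokines and cytokines outside this list gave 2 called rises and 0 falls among 12 tested (1.59% called higher over all genes tested). *Ccl9* stood at 99.5, 98.1, 89.1 and 64.5 in PAL and 175, 189, 208 and 216 in CON (log2 fold change 1.18 ± 0.16 (SE), *Padj* = 1.20e-10) and *Ccl2*, which draws monocytes, at 5679, 5226, 4751 and 5243 in PAL and 6832, 6054, 6226 and 6905 in CON (log2 fold change 0.32 ± 0.06 (SE), *Padj* = 8.01e-05). In these last genes CON replicate 1 lay close to the other CON libraries, at 175 for *Ccl9* and 6832 for *Ccl2*.

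The NF-κB and acute phase lists held no call, which at 2.51% called over all genes tested says little about lists of this size. Of 15 NF-κB subunits and feedback genes tested, 0 passed the test in either direction (log2 fold changes -0.15 to 0.26), and *Rela* gave 2484 ± 123 in PAL and 2342 ± 82.8 in CON (*Padj* = 0.649). Of 8 acute phase genes tested, also 0 passed (-1.46 to 0.32). The complement list held 2 called rises among 12 tested (1.59% over all genes tested), of which *C4b* stood at 272, 322, 278 and 313 in PAL and 335, 413, 455 and 405 in CON (log2 fold change 0.44 ± 0.11 (SE), *Padj* = 0.00555), a call that was lost without CON replicate 3 (*Padj* = 0.119). The list had 0 called rises then, 1 without any other library but PAL replicate 1, and 1 with edgeR.

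**Figure D3:**
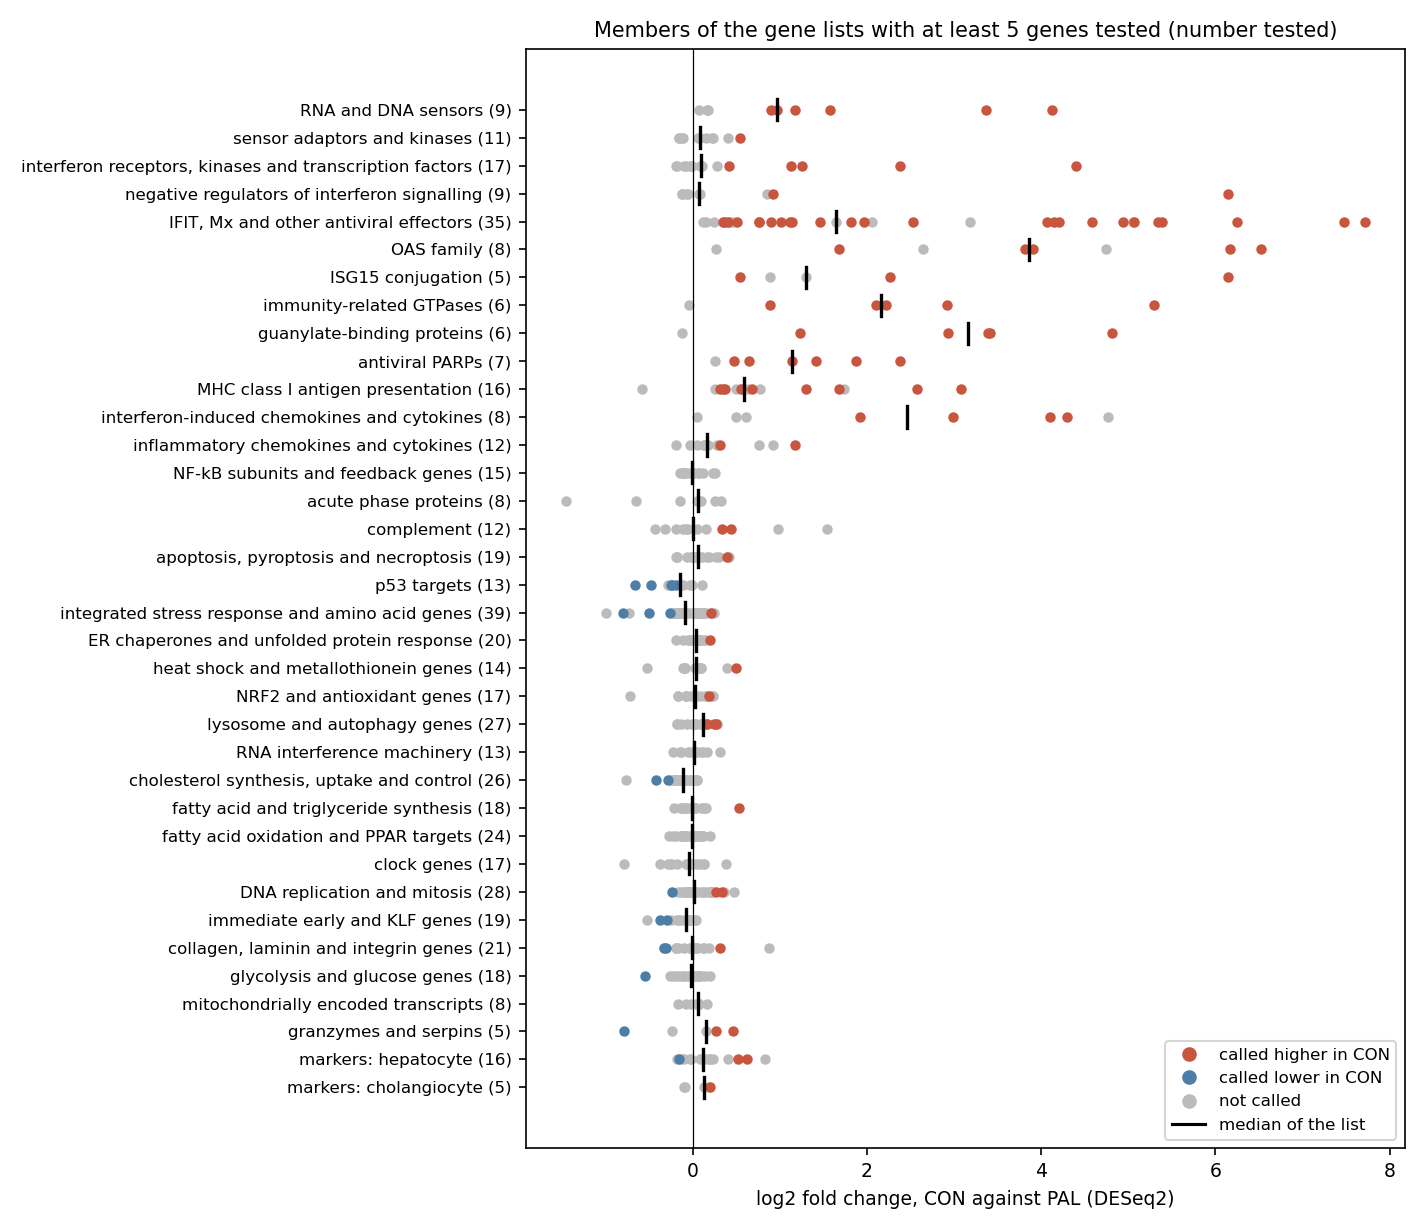
Log2 fold change of CON against PAL (horizontal axis) for every tested member of each list with at least 5 tested genes, with the number tested in brackets. Red points were called higher, blue points lower and grey points not called, and a black bar marks each list's median; red points extend to 7.72 on the interferon-type lists, and points on the lists below them lie mostly near 0.

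How far the interferon genes rose differed between the CON cultures. Over the 74 called rises on interferon-type lists, the median log2 ratio to the PAL mean was 0.49 in CON replicate 1, 2.37 in CON replicate 2, 2.36 in CON replicate 3 and 1.55 in CON replicate 4. CON replicate 1 was nearest to PAL in 71 of the 74 (95.9%) and lay above all PAL libraries in 56, and each of the other 3 CON libraries lay above all PAL libraries in all 74. Over all 125 tested genes of these lists, called or not, CON replicate 1 was the lowest CON library in 99 (79.2%), against 26.3% of all 12928 genes tested. Over the other 132 called rises the medians were closer together, at 0.29, 0.35, 0.37 and 0.31 in CON replicates 1 to 4, and CON replicate 1 was nearest to PAL in 51 (38.6%), more often than any other CON library. Over the 119 called falls the medians were -0.29, -0.29, -0.32 and -0.32, and CON replicate 1 was nearest to PAL in 46 (38.7%). CON replicate 1 had 8425694 gene counts, within the range of the other CON libraries, and the highest mitochondrial share of the CON libraries (3.87%, against 3.49% to 3.60%). Whether these measures have a part in the low interferon genes was not tested.

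**Figure D4:**
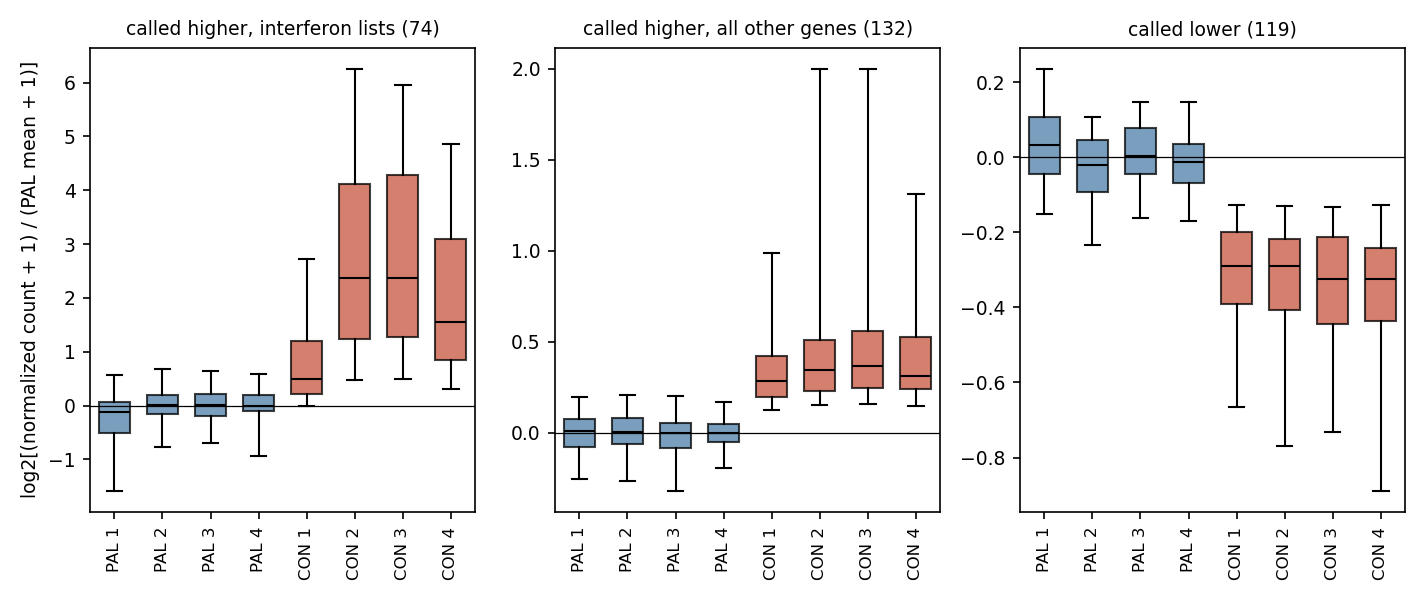
Boxes (quartiles, median line, whiskers from the 5th to the 95th percentile) of log2[(normalized count + 1)/(PAL mean + 1)] per library for the 74 called rises on interferon-type lists, the other 132 called rises and the 119 called falls, with PAL libraries in blue and CON libraries in red. In the first panel CON replicate 1 has a median of 0.49 and CON replicates 2 and 3 of 2.37 and 2.36, and in the other panels the 4 CON medians lie between 0.29 and 0.37 and between -0.32 and -0.29.

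The other rises were mostly small and similar across the CON cultures. *Apoe*, the apolipoprotein by which remnant lipoproteins are taken up, stood at 2180.4, 1778, 2112 and 2078 in PAL and 3136, 2618, 2865 and 3086 in CON (log2 fold change 0.52 ± 0.07 (SE), *Padj* = 5.61e-10). *Alb*, the major secreted hepatocyte protein, stood at 142, 121, 101 and 93.9 in PAL and 137, 171, 207 and 188 in CON. There, CON replicate 1 lay inside the PAL range (log2 fold change 0.63 ± 0.16 (SE), *Padj* = 0.0105), and the call was lost without PAL replicate 4 or CON replicate 3 (*Padj* 0.141 to 0.164). These were the 2 called rises among 16 tested hepatocyte markers (1.59% over all genes tested), and the third called member, *Krt18*, was lower, from 39018, 37407, 37307 and 34753 in PAL to 32789, 33559, 34149 and 32992 in CON (log2 fold change -0.15 ± 0.05 (SE), *Padj* = 0.0386). Its call was lost when any library but PAL replicate 2 or PAL replicate 4 was left out (*Padj* 0.101 to 0.193).

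*Dgat2*, which catalyses the last step of triglyceride synthesis, was the only called gene among 18 tested of fatty acid and triglyceride synthesis, with 177, 135, 149 and 155 in PAL and 216, 207, 234 and 228 in CON (log2 fold change 0.53 ± 0.13 (SE), *Padj* = 0.00320). *Mt1*, a metallothionein, was the only one of 14 heat shock and metallothionein genes, with 1597, 1422, 1796 and 1430.3 in PAL and 2143, 2079, 2279 and 2281 in CON (log2 fold change 0.49 ± 0.07 (SE), *Padj* = 1.17e-08). *Bid*, a trigger of mitochondrial apoptosis, was the only one of 19 cell death genes, with 837, 863, 842 and 779.7 in PAL and 991, 1017, 1212 and 1145 in CON (log2 fold change 0.39 ± 0.08 (SE), *Padj* = 7.95e-05). In all of these the CON and PAL libraries did not overlap, beside 7.22% of all genes tested without overlap. Over all genes tested 1.59% were called higher, a share at which 1 call in a list of this size says little about the list.

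Of 27 lysosome and autophagy genes tested, 3 were called higher and 0 lower, beside 1.59% called higher over all genes tested, and 22 of the 27 lay above 0 (median log2 fold change 0.12). The count was 1 without PAL replicate 4, CON replicate 1 or CON replicate 2, and 2 without any other single library. *Npc2*, which hands cholesterol out of the lysosome, stood at 2877, 3015, 2921 and 3010.1 in PAL and 3503, 3456, 3703 and 3550.1 in CON (log2 fold change 0.26 ± 0.05 (SE), *Padj* = 1.47e-05). *Lamp2*, a protein of the lysosomal membrane, gave 0.17 (*Padj* = 0.0406) and lost its call when any library but PAL replicate 2 or CON replicate 4 was left out (*Padj* 0.130 to 0.257). *Col4a2*, a basement membrane collagen, stood at 807, 813, 863 and 884 in PAL and 1001, 1072, 1113 and 993 in CON (log2 fold change 0.31 ± 0.07 (SE), *Padj* = 0.000905), and *Serpinb9b*, of a family of granzyme inhibitors, at 803, 779.9, 752 and 855 in PAL and 916, 1194, 1138 and 1155 in CON (log2 fold change 0.46 ± 0.08 (SE), *Padj* = 1.05e-05). The next genes, on no list, were chosen after their values were seen. *Arpc1b*, a subunit of the actin-nucleating ARP2/3 complex, stood at 1035, 1036, 1067 and 1052 in PAL and 1620.2, 1428, 1472 and 1319.9 in CON (log2 fold change 0.48 ± 0.07 (SE), *Padj* = 2.68e-09), and *Abcc2*, the canalicular exporter of conjugated bilirubin, at 70.5, 66.5, 78.5 and 80.0 in PAL and 126, 129.8, 127 and 138 in CON (log2 fold change 0.81 ± 0.16 (SE), *Padj* = 0.000145).

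Falls were small, and the called gene with the smallest *Padj* among them was *Txnip*, an inhibitor of thioredoxin that limits glucose uptake and is a known target of CHREBP. It stood at 2780.1, 2699, 2983 and 2669.6 in PAL and 1857, 1853, 1901 and 2013 in CON (log2 fold change -0.55 ± 0.06 (SE), *Padj* = 3.35e-18), a fold of 0.685. The CON libraries lay close together and all below PAL. *Txnip* was the only called gene among 18 tested of glucose metabolism, beside 0.92% called lower over all genes tested. *Gm15441* overlaps *Txnip* on the other strand. *Mlxipl*, which encodes CHREBP, gave 35 ± 7.22 and 37.3 ± 7.63 (log2 fold change 0.10 ± 0.28, *Padj* = 0.958).

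The largest fall by the naming rule was *Prrc2a*, which encodes a large proline-rich protein, with 731, 534, 413 and 659 in PAL and 319, 294, 361 and 280.0 in CON (log2 fold change -0.90 ± 0.20 (SE), *Padj* = 0.000771). The PAL libraries were spread widely, and PAL replicate 3 lay nearest to CON. *Gzme*, a granzyme of the chromosome 14 cluster whose members share sequence, stood at 137, 113, 103 and 84.1 in PAL and 75.2, 64.9, 58.6 and 50.9 in CON (log2 fold change -0.79 ± 0.20 (SE), *Padj* = 0.00527). *Fam3c*, a secreted factor, stood at 598, 433, 447 and 539.6 in PAL and 333, 339, 331 and 326 in CON (log2 fold change -0.60 ± 0.10 (SE), *Padj* = 4.11e-06), *Psip1*, a chromatin-binding protein, at 519.5, 479, 517 and 485 in PAL and 353, 353, 287 and 348 in CON (log2 fold change -0.58 ± 0.09 (SE), *Padj* = 4.37e-07), and *Max*, the partner of MYC, at 198, 209, 131 and 176 in PAL and 111, 123, 117 and 125 in CON (log2 fold change -0.59 ± 0.15 (SE), *Padj* = 0.00988). None of these 5 overlapped between groups, which was a condition for being named among the largest falls. None lost its call when 1 library was left out. *Plcxd2* (log2 fold change -0.62), *Tmx1*, a thioredoxin-like protein of the endoplasmic reticulum (-0.60), and *Lyrm2*, a small mitochondrial protein (-0.54), were called with *Padj* of 0.0441, 0.0252 and 0.0325 in that order. *Plcxd2* lost its call without PAL replicate 2 or 4 or CON replicate 1, 3 or 4 (*Padj* 0.137 to 0.275), *Tmx1* without PAL replicate 1 or 3 or CON replicate 1 (*Padj* 0.145 to 0.147), and *Lyrm2* without PAL replicate 3 or 4 or CON replicate 3 or 4 (*Padj* 0.129 to 0.325). *Akap12*, a scaffold for protein kinase A named after its values were seen, stood at 4639, 4476, 4247 and 4604 in PAL and 3465, 3551, 3391 and 3359 in CON (log2 fold change -0.38 ± 0.05 (SE), *Padj* = 7.10e-12).

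Stress response and amino acid genes gave calls mostly among the falls. Of 39 tested genes of the integrated stress response and amino acid metabolism, 3 were called lower and 1 higher (*Cars*), beside 0.92% called lower and 1.59% called higher over all genes tested, with a median log2 fold change of -0.09. Without CON replicate 3, 1 was called lower, and the list held no called rise without PAL replicate 3 or 4 or any CON library. *Slc7a3*, a carrier of cationic amino acids, stood at 92.6, 70.7, 75 and 85.7 in PAL and 51.7, 41.6, 39.6 and 54.5 in CON (log2 fold change -0.80 ± 0.21 (SE), *Padj* = 0.0102), and lost its call without CON replicate 2 or 3 (*Padj* 0.104 to 0.111). *Trib3*, a pseudokinase induced by ATF4, stood at 311, 347, 333 and 336 in PAL and 221, 222, 248 and 253 in CON (log2 fold change -0.50 ± 0.10 (SE), *Padj* = 0.000273), and *Psph*, which completes serine synthesis, at 1513, 1269.6, 1453 and 1324 in PAL and 1143, 1167, 1101 and 1221 in CON (log2 fold change -0.26 ± 0.07 (SE), *Padj* = 0.0109; lost without CON replicate 3, *Padj* = 0.119). *Cth*, the last enzyme of cysteine synthesis from methionine, is not on that list and was named as one of the largest falls. It stood at 387, 376, 357 and 398 in PAL and 316, 222, 233 and 251 in CON (log2 fold change -0.58 ± 0.11 (SE), *Padj* = 9.28e-05). Of 20 genes of the unfolded protein response tested, *Hspa5* was called higher and 0 lower, beside 1.59% called higher over all genes tested. The list held 0 called rises with edgeR and without any library but PAL replicate 2 or PAL replicate 3.

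Targets of p53 gave 5 called falls and 0 rises among 13 tested, beside 0.92% called lower over all genes tested, and 12 of the 13 lay below 0 (median log2 fold change -0.15). *Zmat3*, an RNA-binding target, stood at 493, 396, 509 and 549 in PAL and 394, 289, 344 and 371 in CON (log2 fold change -0.48 ± 0.11 (SE), *Padj* = 0.00241). It was the called target that kept its call whichever library was left out. *Sesn1*, a stress sensor that restrains mTORC1, stood at 122, 104, 104 and 118 in PAL and 85.6, 79, 78.4 and 37.6 in CON (log2 fold change -0.66 ± 0.20 (SE), *Padj* = 0.0529), where CON replicate 4 was far below the other CON libraries. *Cdkn1a*, the cell-cycle inhibitor p21, stood at 723, 616, 654 and 702 in PAL and 584, 546, 562 and 578 in CON (log2 fold change -0.25 ± 0.08 (SE), *Padj* = 0.0651). *Ccng1* gave -0.19 (*Padj* = 0.0690) and *Gadd45a* -0.23 (*Padj* = 0.0992). *Sesn1* and *Gadd45a* each lost the call without any of PAL replicates 1, 3 and 4 and CON replicates 2 to 4 (*Padj* 0.107 to 0.273 and *Padj* 0.1002 to 0.425), *Cdkn1a* without any library but PAL replicate 2 (*Padj* 0.105 to 0.302), and *Ccng1* without PAL replicate 1 or 4 or CON replicate 2, 3 or 4 (*Padj* 0.178 to 0.323). The list's count ran from 1 to 5 called falls over the left-out libraries and was 4 without CON replicate 1, 3 without PAL replicate 3 and 3 with edgeR, and 1 without PAL replicate 1, PAL replicate 4 or any of CON replicates 2 to 4.

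Cholesterol synthesis gave 2 called falls and 0 rises among 26 tested, beside 0.92% called lower over all genes tested, and 20 of the 26 lay below 0 (median log2 fold change -0.12). The count was 1 without CON replicate 2. *Nsdhl* stood at 312, 272, 305 and 261 in PAL and 227, 202, 196 and 234 in CON (log2 fold change -0.42 ± 0.11 (SE), *Padj* = 0.0149), and *Msmo1* at 1252, 1288, 1074 and 1194 in PAL and 955, 1029, 956 and 1013 in CON (log2 fold change -0.28 ± 0.07 (SE), *Padj* = 0.00534). Both enzymes act in removing methyl groups from sterol intermediates on the way to cholesterol. *Msmo1* lost its call in the fit of all 24 libraries (*Padj* = 0.105), and *Nsdhl* lost its call without PAL replicate 3 or CON replicate 2 or 3 (*Padj* 0.104 to 0.145). The integrins *Itga3* (2529, 2071, 2449.7 and 2212 in PAL, 1878, 1859, 1820.2 and 1812 in CON; log2 fold change -0.33 ± 0.06 (SE), *Padj* = 0.000105) and *Itgav* (log2 fold change -0.31 ± 0.09 (SE), *Padj* = 0.0529; lost without PAL replicate 3 or CON replicate 2 or 3, *Padj* 0.230 to 0.327) were the called falls among 21 matrix and integrin genes tested. The list also held 1 called rise, *Col4a2*, beside 0.92% called lower and 1.59% called higher over all genes tested. *Dusp1*, a phosphatase that switches off MAP kinases, stood at 515, 534, 527 and 568 in PAL and 433, 423, 396 and 395 in CON (log2 fold change -0.38 ± 0.08 (SE), *Padj* = 0.000707). *Klf10*, an immediate early factor and CHREBP target, gave -0.30 (*Padj* = 0.0461; lost when any library but PAL replicate 2 or CON replicate 2 was left out, *Padj* 0.108 to 0.321). Of 28 replication and mitosis genes, *Mki67* (0.34, *Padj* = 0.0339) and *Ccnb2* were called higher and *Ccnd1* lower (-0.24, *Padj* = 0.0651), with 0 rises without PAL replicate 4, CON replicate 3 or CON replicate 4. Over all genes tested, 1.59% were called higher and 0.92% lower. *Mki67* lost its call without PAL replicate 3 or 4 or CON replicate 2, 3 or 4 (*Padj* 0.116 to 0.236), and *Ccnd1* without any library but PAL replicate 2 or CON replicate 1 (*Padj* 0.120 to 0.321).

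No gene was called on the lists of RNA interference, clock and fatty acid oxidation genes, beside 2.51% called over all genes tested, a share at which lists of this size hold few calls or none. Of 13 genes of the RNA interference machinery tested, 0 passed the test, and *Dicer1* gave 125 ± 6.86 in PAL and 119.8 ± 6.4 in CON (log2 fold change -0.06 ± 0.15, *Padj* = 0.955). *Ago2*, the Argonaute that cuts the target, gave 842 ± 56.6 and 867 ± 35.7 (0.04 ± 0.07, *Padj* = 0.927). Of 17 clock genes tested, 0 passed, and *Arntl*, the symbol under which *Bmal1* is listed, gave 53 ± 12.6 and 46.8 ± 12.2 (-0.18 ± 0.25, *Padj* = 0.891). Fatty acid oxidation and PPAR targets (0 of 24 tested) and mitochondrially encoded transcripts (0 of 8) also held no call.

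Beside the other groups of the series, normalized over all 24 libraries, the levels of 4 of these genes are set side by side. *Ifit1* ran from 34.0 to 81.2 in BSA (carrier without palmitate), 15.1 to 37.3 in PAL, 359 to 3237 in CON, 375 to 571 with *Bmal1* esiRNA (100 nM), 8818 to 17571 with *Chrebp* esiRNA (100 nM) and 16367 to 27842 with both (200 nM). The *Bmal1* esiRNA libraries thus lay inside the range that the 4 CON libraries span, near CON replicate 1. *Ccl9* ran from 61.4 to 95 in PAL, 167 to 206 in CON, 80.4 to 119 with *Bmal1* esiRNA, 90.4 to 126 with *Chrebp* esiRNA, 114 to 161 with both and 103 to 132 in BSA, so that CON was higher than every other library shown. *Txnip* ran from 2542 to 2846 in PAL, 1771 to 1926 in CON, 1447 to 2173 over the 3 gene-specific esiRNA groups and 2388 to 3472 in BSA. All transfected libraries lay below PAL, and the BSA libraries spanned the PAL range. *Apoe* ran from 1695 to 2083 in PAL, 2502 to 2994 in CON, 2631 to 3238 with *Bmal1* esiRNA, 2141 to 2445 with *Chrebp* esiRNA, 1902 to 2809 with both and 3466 to 3861 in BSA, so that the libraries with both esiRNAs reached into the PAL range. These levels were not tested between the esiRNA groups, and the doses differ.

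**Figure D5:**
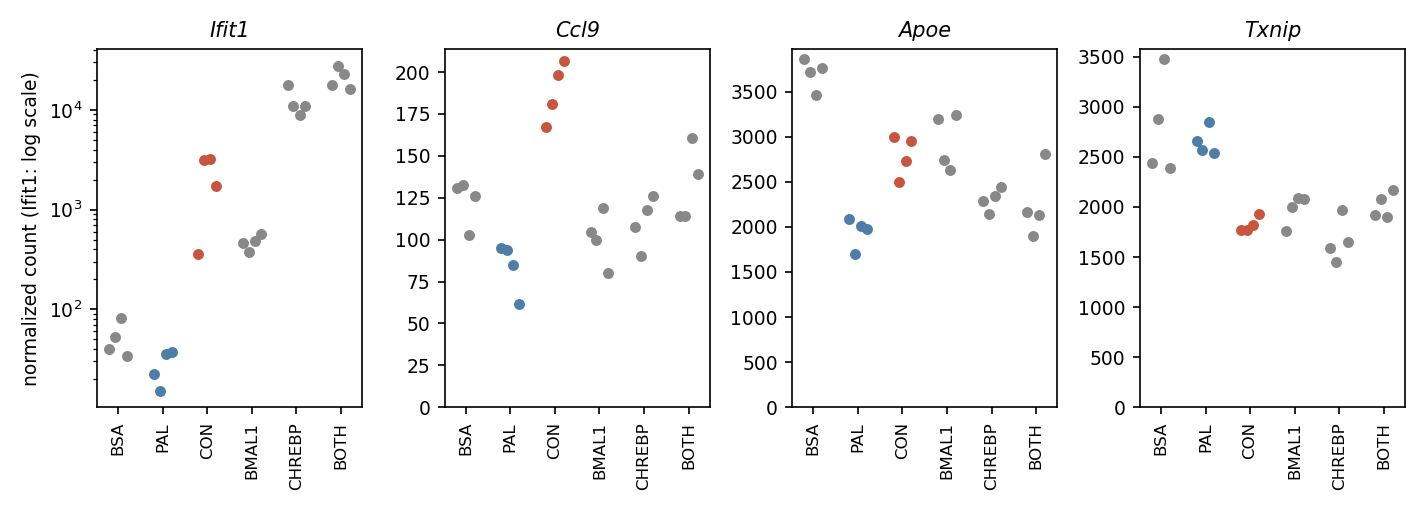
Normalized counts (size factors of all 24 libraries; log axis for *Ifit1*, linear axes from 0 for *Ccl9*, *Apoe* and *Txnip*) in the 4 libraries of each of the 6 groups, with PAL in blue, CON in red and the others in grey. CON spans 359 to 3237 for *Ifit1*, lies above all other groups for *Ccl9* (167 to 206), and lies with the other esiRNA groups below PAL for *Txnip*.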

How the data were processed

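AML-12 RNA was sequenced by BRB-seq. According to the study's methods, the authors used the BRB-seq suite for demultiplexing, STAR for alignment to mm10 and HTSeq for counting (featureCounts is also named). The deposited values are raw counts per gene and library, without normalization. Versions, annotation release, strand and the handling of molecular identifiers are not given in the sources used here. Reads of genes that overlap on either strand cannot be separated with certainty, which touches *Usp18*, *Irf7*, *Cxcl10*, *Oasl1*, *Rtp4*, *Dhx58*, *Irgm2*, *Txnip*, *Irf9*, *Tap1*, *Dusp1*, *Psip1* and *Prrc2a*, among others. HTSeq summary lines were dropped, leaving 55487 genes.

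CON and PAL were taken from the sample titles and compared by the DESeq2 (1.42.0, R 4.3.3) Wald test on genes whose counts summed to 25 or more over the 8 libraries, with *Padj* under 0.1. The log2 fold changes are unshrunken. Of the 12928 genes, 502 received no *Padj* by independent filtering, and 1328 had an unadjusted p under 0.05. Normalized counts are counts divided by DESeq2 size factors, and 3 counts correspond to 0.267 to 0.511 CPM. Intervals and floors cover counting error only. Library checks used 2-sided exact permutation tests. Coordinates came from GENCODE M21 on GRCm38, the build also called mm10, in which 55227 of the genes were found. Promoters came from RefSeq (GRCm38.p6) and were matched by symbol.

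Named genes are the 12 largest called rises and falls among genes that averaged 50 or more normalized counts and did not overlap, per list the 4 called members with the largest change and the most abundant member, and sensors, interferon factors, the study's targets and *Dicer1* and *Ago2*; not every gene so chosen is described, and some genes are not reported here. The members, lists and rule were chosen with earlier results of these data known. The alternatives were edgeR (4.0.16), TMM size factors, other filters and thresholds, all 24 libraries, the replicate number as a block, and leaving out each library. Replicate libraries of a group all differed by more than counting noise (chi-square per degree of freedom 2.69 to 6.02).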

Additional observations from a re-analysis of the deposited data

Results flagged for a closer look

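Of 180 groups of 4 libraries examined, 7 held 1 library at a distance from the other 3 beyond Dixon's 95% critical value, where chance alone flags about 1 group in 20. Among genes that were called higher, the highest PAL library was far above the rest for *Xaf1* (24.9 normalized counts in PAL replicate 1), *Socs1* (41.0 in PAL replicate 3) and *Ifi44* (0.816 in PAL replicate 4, a single read), and the lowest PAL library was far below the rest for *Eif2ak2* (48.5 in PAL replicate 2). CON replicate 4 was far below the other CON libraries for *Lamp2* (3273) and *Sesn1* (37.6), and CON replicate 3 for *Psip1* (286.9).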

How the results depend on the processing

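Against 206 higher and 119 lower genes, the other settings gave counts within 1.5 times of these, from edgeR's quasi-likelihood test (202 and 97) to all 24 libraries in 1 fit (182 and 92) and *Padj* under 0.05 (165 and 81), except for the replicate block and some left-out libraries. edgeR's calls held 189 of the 206 rises and 97 of the 119 falls. A replicate block gave 132 and 54, of which 124 and 54 were among the calls above. Between libraries of the same number, the correlations of deviations were 0.13, 0.16, -0.03 and 0.08 for numbers 1 to 4. Numbers 1, 2 and 4 correlated best with their own number, and number 3 with number 2. With so few libraries these values cannot decide whether libraries of the same number share more than that number. Leaving out 1 library gave 119 to 203 rises and 61 to 140 falls, both lowest without CON replicate 3. Without CON replicate 2 they were 125 and 72, and falls numbered 69 without PAL replicate 4 and 73 without CON replicate 4. Interferon-list rises ran from 53 to 86 over the left-out libraries and from 67 to 82 over the other settings. Of 79 named called genes, 53 kept the call whichever library was left out (40 of 52 rises and 13 of 27 falls). With edgeR, *Lamp2*, *Ccng1* and *Gadd45a* were not called, and in the fit of all 24 libraries *Tlr3*, *Mki67*, *Plcxd2*, *Msmo1*, *Ccng1*, *Gadd45a*, *Klf10* and *Itgav* were not. The block lost 18 named calls (*Dhx58*, *Socs1*, *Alb*, *Lamp2*, *Mki67*, *Slc7a3*, *Sesn1*, *Plcxd2*, *Tmx1*, *Max*, *Lyrm2*, *Nsdhl*, *Cdkn1a*, *Ccng1*, *Gadd45a*, *Klf10*, *Itgav* and *Ccnd1*). With 3 against 4 libraries no library check can give an exact permutation p below 0.0571. The difference (CON minus PAL) in mitochondrial share was 0.155 percentage points, and 0.0780 without CON replicate 1, and that in total gene count about 1360350, and 567722 without CON replicate 2. The difference in reads not aligned (CON minus PAL, in percentage points) ran from -0.0269 without PAL replicate 4, turning sign there and without CON replicate 4 (-0.0180), to 0.301. Over the left-out libraries, the uncalled log2 fold changes of *Ago2* ran from -0.0034 (without PAL replicate 2) to 0.0780 and of *Mlxipl* from -0.0241 (without CON replicate 3) to 0.213, each changing sign. With 1 more base (C) at the end of the ISRE core, 14.7% of called rises and 1.10% of called falls held a match. The causes of these shifts were not tested. With 4 libraries a group and 3′ tags, genes of low level, the interferons among them, were below what could be tested.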

Other observations

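Genes on no list were also called, and those given here were chosen after their values were seen. Several are known interferon-inducible genes and followed the order of CON libraries described above. *Rnf213*, a giant ubiquitin ligase, stood at 332, 348, 339 and 380.4 normalized counts in PAL and 445, 1403, 1629.8 and 955 in CON (log2 fold change 1.66 ± 0.39 (SE), *Padj* = 0.00228), and *Ifi202b*, of the family of DNA-binding HIN proteins, at 177, 176, 218 and 180.4 in PAL and 314, 1161, 1319.7 and 621 in CON (log2 fold change 2.18 ± 0.45 (SE), *Padj* = 0.000235). *Apol9a*, a gene close in sequence to *Apol9b*, had 2 raw counts over the PAL libraries and 252 over the CON libraries, a ratio of 106 (95% counting interval 29.0 to 878).

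Abundant genes were among the small rises. *Fth1*, the ferritin heavy chain, stood at 57685, 59949, 58884 and 56319.7 in PAL and 65399, 65889, 68503 and 69792 in CON (log2 fold change 0.21 ± 0.04 (SE), *Padj* = 0.000105), and *Ftl1*, the light chain, at 32360.4, 33113, 30425 and 27281 in PAL and 36718, 34773, 37656 and 42099 in CON (log2 fold change 0.30 ± 0.07 (SE), *Padj* = 0.00109). Among the falls were *Msln* (mesothelin, a surface protein) at 4124, 3944, 4011 and 3354 in PAL and 3073, 3017, 3017 and 2688 in CON (log2 fold change -0.39 ± 0.07 (SE), *Padj* = 4.24e-06), *Fbln2* (a matrix fibulin) at 1151, 1248, 1171 and 1139 in PAL and 859, 926, 850.2 and 727 in CON (log2 fold change -0.48 ± 0.08 (SE), *Padj* = 1.27e-07) and *Snai2* (a transcriptional repressor) at 293, 309, 339.9 and 284 in PAL and 239.8, 193, 218 and 232 in CON (log2 fold change -0.48 ± 0.11 (SE), *Padj* = 0.00224). The ribosomal protein gene *Rpl19* fell by little and evenly, from 22915, 23128, 21836 and 23872 in PAL to 19417, 18925, 19644 and 19509 in CON (log2 fold change -0.24 ± 0.04 (SE), *Padj* = 4.11e-06).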
